A study of Homo sapiens with 12 samples.

Results

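An embryoid body (EB), a floating aggregate in which human embryonic stem cells (hESC) differentiate, was compared gene by gene with the undifferentiated NTU1 hESC that express the noncoding RNA MEG3 (MEG3-ON). The comparison uses 5 of the 12 arrays of the series, namely the 1 EB array and the 4 MEG3-ON NTU1 arrays, all Illumina HumanHT-12 bead arrays of RNA from whole cultures. Its members are all genes above background, taken as a detection p-value under 0.01 in the EB or on at least 2 of the 4 MEG3-ON arrays with 1 probe per gene, which gave 11759 of 19951 genes. The EB was labelled MEG3-ON, and the study's legends describe it as differentiated from MEG3-ON hESC and used as the differentiated control of a pluripotency assay. The day at which this EB was taken was not given, and its neural differentiation capacity was labelled "not detected". The MEG3-ON NTU1 samples are 4 sublines of 1 hESC line, classed by the study from quantitative PCR of MEG3 and labelled with the better neural differentiation capacity. The other 7 arrays, 5 of MEG3-OFF NTU1 sublines, labelled with the worse neural differentiation capacity, and 2 of H9, another hESC line also labelled MEG3-OFF, serve below only as further undifferentiated levels. The label protocols place every culture on mouse embryonic fibroblasts in serum-free medium, whereas the methods describe EB formation in suspension, so culture form and differentiation cannot be told apart. A single chip held every array and kept each group in neighbouring positions. Group and chip position therefore cannot be told apart either.

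EBs are known to lose the transcription factor network of pluripotency built around POU5F1, NANOG and SOX2 and to form derivatives of ectoderm, mesoderm and endoderm side by side. The anterior neural plate, a default ectodermal fate when NODAL and BMP signals are low, carries an eye field marked by RAX, LHX2, PAX6, SIX3 and SIX6. Mesoderm of the lateral plate and its mesenchyme express HAND1, TBX and MSX factors and fibrillar collagens.

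With 1 EB array no test was possible, and no difference below has a p-value. Values are log2 normalised signals, given for the EB and then for the MEG3-ON arrays as replicates 1 to 4 or as mean ± SD (n = 4), and a difference is EB minus the MEG3-ON mean. The SD covers the spread between MEG3-ON sublines, which may in part be technical, and leaves out the spread between EBs. In RNA from whole cultures, fewer cells of a type and less RNA per cell cannot be told apart. Where a probe was not above background on any array of one of the groups, the fold is a lower bound, computed against the higher of the probe's own value and the lowest signal among detected probes on each array, and it is written as "at least". Where only some MEG3-ON arrays were above background the measured difference is given, and its size rests in part on values near background. Counts of genes over 2-fold and over 4-fold use the measured means, bounds included, so a gene can be counted whose bound is under that fold. At 2-fold this was so for 159 of the 278 higher and 119 of the 247 lower genes with a bound.

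The EB array had 18796 detected probes, against 16864 to 18390 on the MEG3-ON arrays, and a median raw signal of 102.2, against 101.6 to 108.4. Over the 11759 genes the EB correlated with the MEG3-ON arrays at 0.915 to 0.920, and the MEG3-ON arrays with each other at 0.983 to 0.991. The median difference over all genes was 0.04. The 14 housekeeping genes had a median difference of -0.05, with none over 2-fold, and GAPDH, a glycolytic enzyme used as a loading control, was at 14.56 in the EB and 14.64 ± 0.03 in MEG3-ON cells.

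The number of genes over 2-fold was of the same order in both directions. A total of 1066 genes, 9.07% of those above background, were over 2-fold higher, and 912, or 7.76%, were over 2-fold lower. Among genes detected on all 5 arrays the order turned, with 620 higher and 662 lower. Of the 1066 and 912 genes, 1064 and 904 lay outside the range of the 4 MEG3-ON arrays, and 1054 and 864 lay outside the range of all 11 undifferentiated arrays. Over 4-fold differences were found for 258 genes (2.19%) in the higher and 167 genes (1.42%) in the lower direction. By comparison, the 4 MEG3-ON arrays spanned over 2-fold among themselves for 454 genes (3.86%), with a median SD of 0.19. Being outside the MEG3-ON range alone was common, since the EB was above all 4 arrays for 38.1% and below all 4 for 34.4% of genes, so only differences over 2-fold are counted below. Counts in the gene lists below are to be read beside the shares of 9.07% higher and 7.76% lower over all genes above background. Among the 495 genes over 2-fold that had several detected probes, all probes of a gene had 1 sign for 467 and all were over 2-fold for 281.

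**Figure D1:**
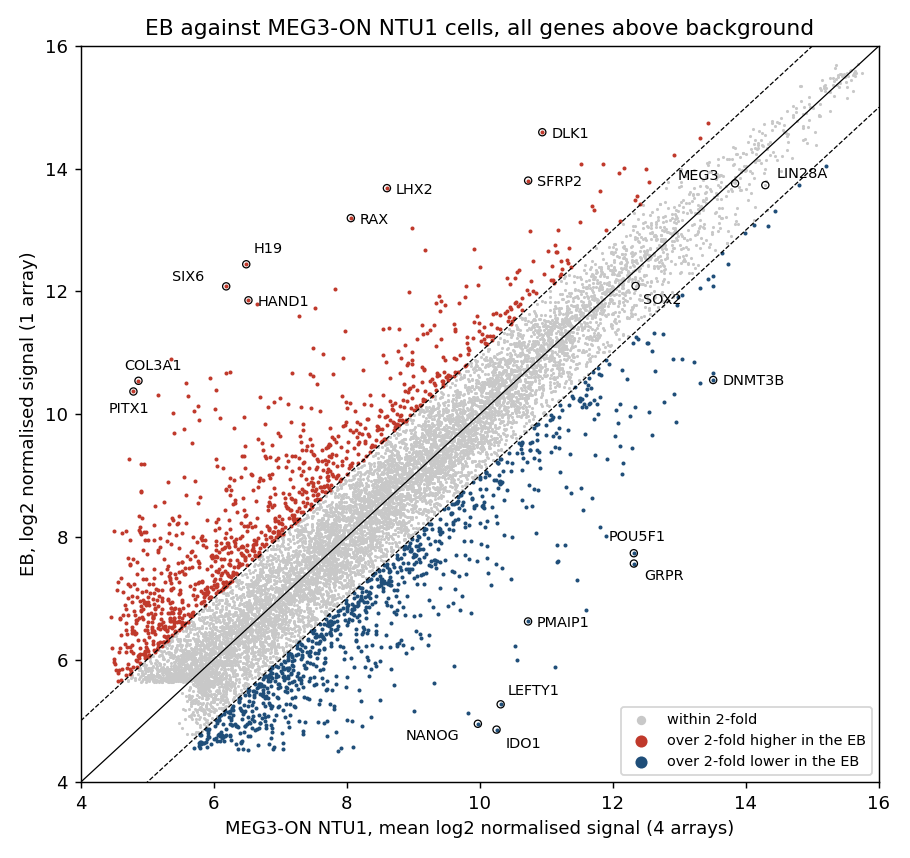
Each point is 1 of 11759 genes, with its log2 normalised signal in the EB (vertical axis, 1 array) and its mean in MEG3-ON NTU1 cells (horizontal axis, 4 arrays). Dashed lines mark 2-fold. SIX6, H19, RAX and LHX2 stand far above the lines, POU5F1, GRPR, NANOG and IDO1 far below, and MEG3, SOX2 and LIN28A lie between them.

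The 20 largest differences in the higher direction ran from 61.9-fold to 20.5-fold and were led by an imprinted RNA, eye field factors and mesenchymal genes. H19, a maternally expressed noncoding RNA of fetal tissues, was at 12.44 in the EB, against 6.48, 6.49, 6.56 and 6.43 on the MEG3-ON arrays. This was the largest difference of all (5.95, or 61.9-fold), and the SD of the MEG3-ON arrays was 0.05. SIX6, a homeobox factor of the eye field and the optic vesicle, was at 12.08 in the EB, against 6.41, 6.26, 5.09 and 6.99 in MEG3-ON cells, a difference of 5.89 (59.5-fold). COL3A1, a fibrillar collagen of mesenchyme, was at 10.54 in the EB and not above background on any of the 11 undifferentiated arrays (at least 26.2-fold). PITX1, a homeobox factor of hindlimb and oral ectoderm, was likewise at 10.37 in the EB and below background on all 11 others (at least 23.2-fold). HAND1 was at 11.85 in the EB, against 6.56, 8.67, 4.79 and 6.08 in MEG3-ON cells. Its difference of 5.33 is the least certain of the 20, since the MEG3-ON arrays had an SD of 1.61, but the EB was above all of them and above the highest MEG3-OFF array (9.50).

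The other genes of this set were secreted or matrix proteins, transcription factors and signalling proteins. GRP, a neuropeptide that stimulates gastrin release, was at 10.31 in the EB, against 5.04, 4.92, 4.85 and 5.82 in MEG3-ON cells, of which 1 array was above background. Its measured difference was 5.16. HAPLN1, which links proteoglycans to hyaluronan, was higher by 4.93 and COL2A1, the collagen of cartilage, by 4.48. NRG1, a ligand of ERBB receptors, was higher by 4.36. WNT5B, a WNT ligand, was at 10.01 and below background on the undifferentiated arrays (at least 18.1-fold), and DKK1, a secreted WNT antagonist, was higher by 4.36, with 1.35 at another of its probes. NR2F1, a nuclear receptor of the developing brain, was at 9.27 (at least 10.8-fold). ZNF503, a zinc finger repressor, was higher by 4.69, with 1.40 at another of its probes, and MEIS2, a HOX cofactor, by 4.36, with 1.32 at another. NCALD, a neuronal calcium sensor, was higher by 4.44. DIPK1C (5.54) and CCDC92 (4.65) complete the set with the eye field genes PAX6, RAX and LHX2 described below.

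**Figure D2:**
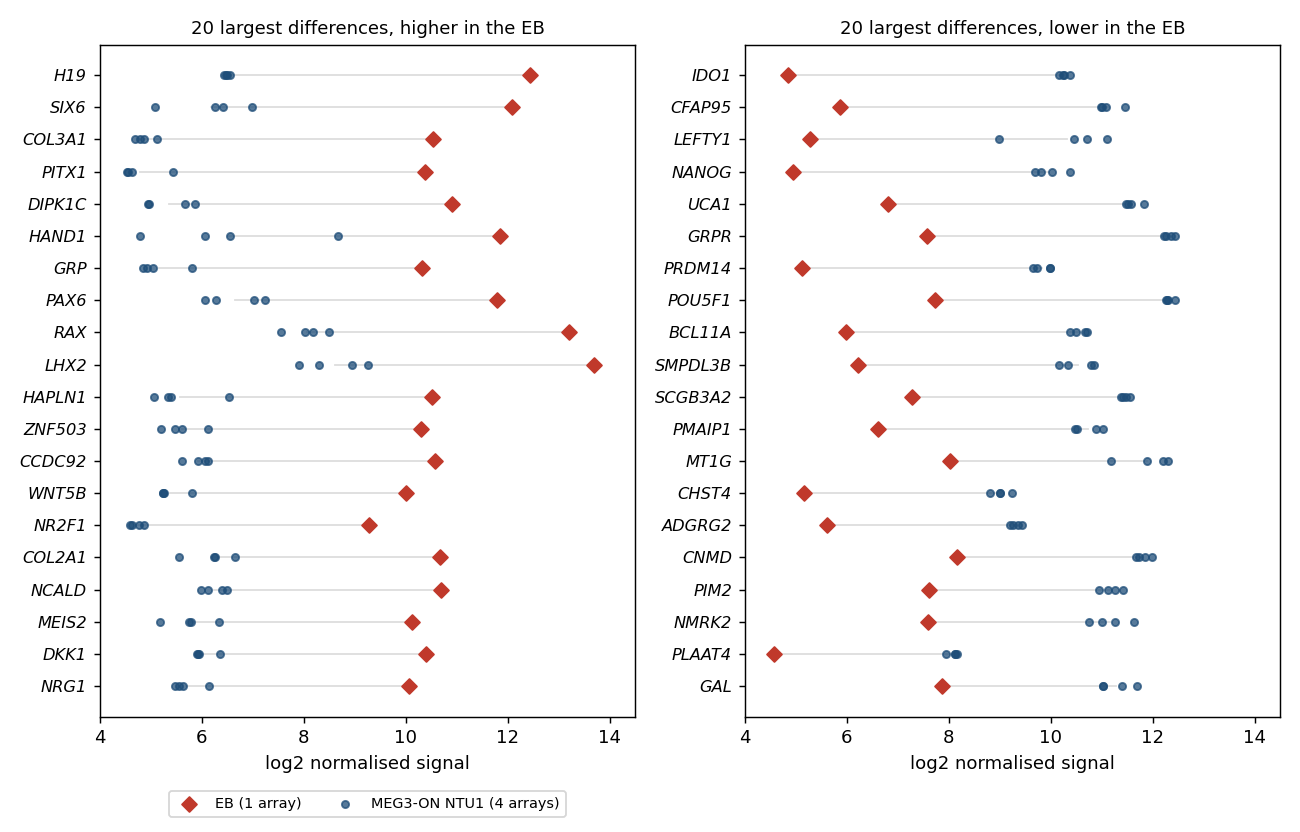
The 20 genes with the largest difference in each direction, with the log2 normalised signal of the EB (diamond) and of each MEG3-ON NTU1 array (circles). No diamond lies within the range of its circles, and HAND1 and LEFTY1 have the widest spread of circles.

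The 20 largest differences in the lower direction held core pluripotency factors, and the EB was below all 11 undifferentiated arrays for each of them. IDO1, an enzyme that degrades tryptophan, was at 4.86 in the EB, against 10.23, 10.16, 10.25 and 10.37 in MEG3-ON cells, and was not above background in the EB (at least 24.6-fold). It had the largest measured difference of the set, but its bound is under that of LEFTY1. LEFTY1, a secreted inhibitor of NODAL, was below background in the EB (5.27), against 11.10, 10.70, 8.98 and 10.46 in MEG3-ON cells (at least 25.6-fold). NANOG was below background in the EB (4.95), against 10.38, 10.02, 9.81 and 9.68 (at least 20.2-fold), and PRDM14, a repressor that sustains hESC, was at 5.12, against 9.97, 9.98, 9.73 and 9.64 (at least 18.3-fold). POU5F1 remained above background at 7.73, against 12.29, 12.42, 12.26 and 12.29, a difference of -4.58. The MEG3-ON arrays were tight for these genes, with SDs of 0.07 for POU5F1 and 0.08 for IDO1, and wide for LEFTY1 (0.92).

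GRPR, the receptor of GRP, was at 7.56 in the EB, against 12.43, 12.35, 12.22 and 12.26 in MEG3-ON cells (26.9-fold lower), so the ligand was among the 20 largest in one direction and its receptor among the 20 largest in the other. PMAIP1, a BH3-only protein that promotes apoptosis, was at 6.62 in the EB and 10.73 ± 0.27 in MEG3-ON cells. BCL11A, a zinc finger repressor, had a difference of -4.57, and the noncoding RNA UCA1 was at 6.81 in the EB, against 11.60 ± 0.15. MT1G, a metal-binding metallothionein, was at 8.02 in the EB and 11.89 ± 0.50 in MEG3-ON cells, and GAL, the neuropeptide galanin, at 7.86 and 11.28 ± 0.33. SMPDL3B, a membrane-bound phosphodiesterase, had a difference of -4.30 and SCGB3A2, a secretoglobin, of -4.17. PIM2, a kinase, and NMRK2, which phosphorylates nicotinamide riboside, both had -3.57, and CNMD, chondromodulin, had -3.65. CHST4, a sulfotransferase (at least 10.4-fold), ADGRG2, an adhesion receptor (at least 12.8-fold), and PLAAT4, a phospholipid acyltransferase (at least 5.49-fold), were below background in the EB. CFAP95 had a difference of -5.25.

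Most pluripotency genes were lower in the EB, but not the whole set. Of 46 measured genes of a pluripotency list, 45 were above background, 31 were over 2-fold lower, 1 was over 2-fold higher and 13 lay between, with a median difference of -1.98, against 0.04 over all genes. DNMT3B, the de novo DNA methyltransferase of pluripotent cells, was at 10.56 in the EB, against 13.46, 13.51, 13.32 and 13.74. The differences were -2.93 for L1TD1, an RNA-binding protein of hESC, -2.84 for PODXL, a sialomucin that carries hESC surface epitopes, -2.57 for DPPA4, a nuclear pluripotency marker, and -2.29 for ZFP42, also called REX1. GDF3, a TGF-beta family ligand of pluripotent cells, was below background in the EB (at least 4.73-fold), as were NODAL (at least 2.78-fold), UTF1 (at least 2.36-fold) and DPPA2 (at least 2.38-fold). With bounds in place of measured values the list median was -1.48. Another POU5F1 probe had a difference of -0.58, so the size of that difference depended on the probe.

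Several members within 2-fold are factors that neural progenitors also express. SOX2, which also marks neural progenitors, was at 12.09 in the EB, against 12.46, 12.31, 12.49 and 12.10, just below the lowest MEG3-ON array and within the range of the 11 undifferentiated arrays. LIN28A, an RNA-binding protein that blocks let-7 processing, was at 13.73 in the EB and 14.29 ± 0.09 in MEG3-ON cells, SALL4, a zinc finger factor, at 11.25 and 11.67 ± 0.09, and LIN28B at 11.76 and 11.44 ± 0.28. OTX2, a factor of primed pluripotency and of the anterior brain, was at 11.11 and 10.71 ± 0.10 at the probe used. Its 3 detected probes had differences of 0.15 to 2.24, so its place within 2-fold depended on the probe. ZIC2, a zinc finger factor of the neural plate, was at 13.16 and 12.87 ± 0.16. SFRP2, a secreted WNT modulator, was the 1 list member over 2-fold higher, at 13.81 in the EB, against 10.69, 10.86, 10.39 and 10.96. LEFTY2, which lies beside LEFTY1 in the genome, was at 10.74 in the EB, against 12.34, 11.40, 10.66 and 11.42, within the MEG3-ON range.

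NANOG is the gene of this list whose promoter, the 300 bases around its RefSeq start, held a composite octamer and SOX element, and it is shown for that reason, with the element in capitals. The letters searched on both strands were CATTGT, any base and ATGCAA, which 4 of 35116 RefSeq promoter windows of this length held (0.0114%), and NANOG was the only 1 of the 30 list genes above background with a promoter in the table. The match began 119 bases before the start site, on the reverse strand, in chr12:7789152-7789451 (GRCh38.p14, plus strand).
NANOG: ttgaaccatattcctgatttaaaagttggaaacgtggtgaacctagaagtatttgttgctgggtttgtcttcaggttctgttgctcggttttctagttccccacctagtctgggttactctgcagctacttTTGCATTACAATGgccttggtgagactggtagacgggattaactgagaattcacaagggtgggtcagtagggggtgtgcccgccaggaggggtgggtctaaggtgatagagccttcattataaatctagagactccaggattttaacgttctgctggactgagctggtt

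Some array probes address microRNA genes, and 3 of them, chosen after their values were seen, are shown with their mature sequences from RefSeq, seed in capitals. The miR-302 cluster is expressed in hESC, and the 2 members shown share the seed. In GRCh38.p14 the mature sequences lie at chr4:112648366-112648388 (miR-302c-3p, minus strand), chr4:112648006-112648028 (miR-302d-3p, minus strand) and chr12:62603691-62603712 (let-7i-5p, plus strand).
hsa-miR-302c-3p: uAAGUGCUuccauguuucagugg
hsa-miR-302d-3p: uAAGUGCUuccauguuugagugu
hsa-let-7i-5p: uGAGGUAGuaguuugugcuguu
MIR302C was at 5.73 in the EB, against 8.91, 8.36, 7.83 and 8.27 in MEG3-ON cells (6.10-fold lower), and below all 11 undifferentiated arrays. MIR302D was below background in the EB (4.69), against 6.26 ± 0.42 (at least 1.54-fold). MIRLET7I, a gene of the let-7 family that accumulates with differentiation, was above background in the EB alone (6.52, at least 1.62-fold). These probes read the transcript of the gene, and the mature microRNAs were not measured.

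Genes of the forebrain and of neural progenitors had the highest median of the lists at the filter used. Among genes detected on all 5 arrays their median was 1.66, just under that of the HOX list (1.68). The HOX list was small at that filter, since 5 of its 8 genes above background had a bound and dropped out. Of 33 measured genes, 28 were above background, 21 were over 2-fold higher and 1 was over 2-fold lower, with a median difference of 2.01. RAX was at 13.19 in the EB, against 8.19, 7.55, 8.02 and 8.49 in MEG3-ON cells (35.1-fold). LHX2 was at 13.68, against 8.95, 8.30, 7.90 and 9.26 (33.8-fold), and PAX6 at 11.79, against 7.03, 6.06, 6.28 and 7.24 (35.3-fold, and 4.17 on the log2 scale at another probe). SIX3, a repressor of WNT genes in the anterior brain, was at 8.77 in the EB and between 6.24 and 7.21 in MEG3-ON cells.

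For LHX2, PAX6, RAX and SIX3, the MEG3-ON arrays also lay above all MEG3-OFF NTU1 and H9 arrays, while for SIX6 they overlapped. LHX2 averaged 13.68 in the EB, 8.60 in MEG3-ON, 5.91 in MEG3-OFF and 4.55 in H9 cells, and it was above background on 4 of 4 MEG3-ON, 2 of 5 MEG3-OFF and 0 of 2 H9 arrays. PAX6 and SIX3 were above background on all 4 MEG3-ON arrays and on none of the MEG3-OFF and H9 arrays. The EB was above every one of the 11 undifferentiated arrays for all of them.

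**Figure D3:**
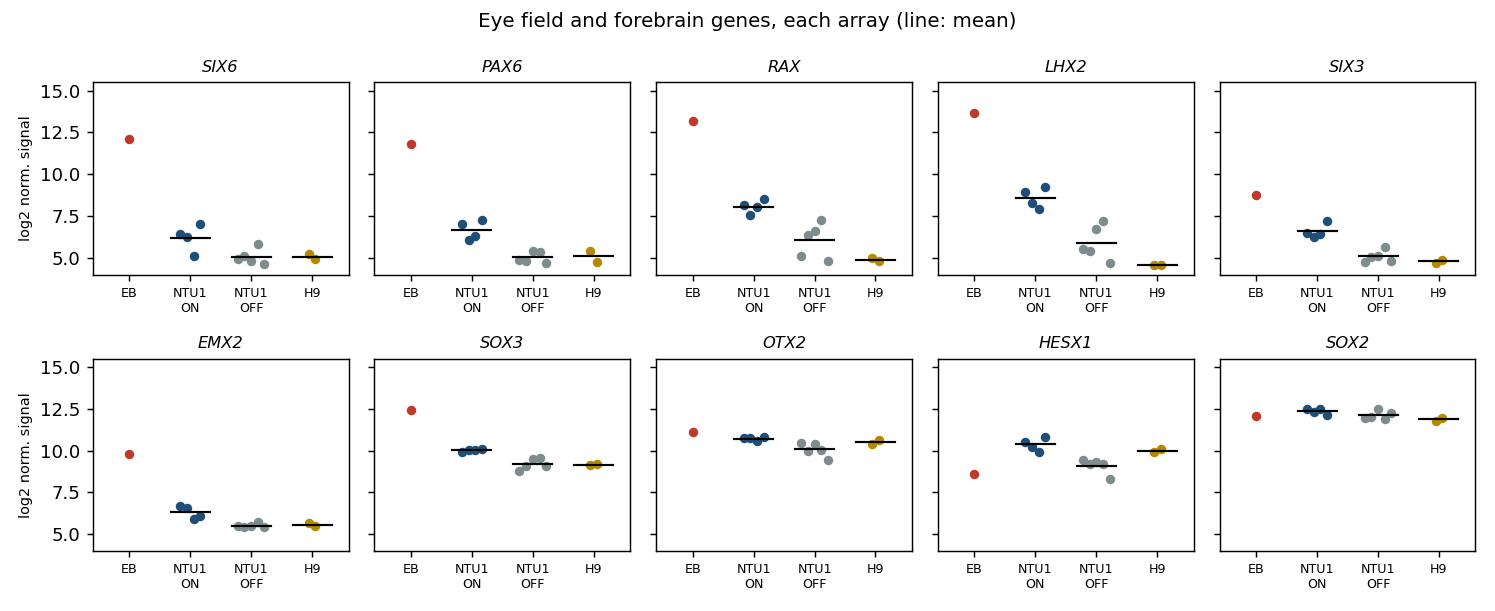
Log2 normalised signal of 10 genes on each array, with the EB first, then MEG3-ON NTU1 (4 arrays), MEG3-OFF NTU1 (5 arrays) and H9 (2 arrays). Lines are group means. SIX6, PAX6, RAX and LHX2 are highest in the EB, HESX1 is lower in the EB than in MEG3-ON cells, and SOX2 is level.

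Further forebrain genes were EMX2 (3.46 higher) and FEZF2 (at least 4.27-fold), both of the dorsal forebrain, SP8 (3.05 higher) and DACH1 (4.12 higher, 1.33 at another probe), and SOX3, a neural progenitor factor, at 12.40 in the EB and 10.01 ± 0.06 in MEG3-ON cells. VIM, an intermediate filament of progenitors and mesenchyme, was higher by 1.84, FABP7, a lipid carrier of radial glia, by 1.13, and NES, the progenitor filament nestin, by 0.50, which is under 2-fold. HESX1, a homeobox repressor of the early anterior neural plate, was the 1 gene over 2-fold lower, at 8.60 in the EB, against 10.53, 10.23, 9.91 and 10.81, though within the MEG3-OFF range of 8.31 to 9.41. SOX1, a defining marker of the neural tube, had no probe above background in the EB or on a MEG3-ON array, and neither did the midbrain and hindbrain markers EN2, GBX2 and PAX5. Other genes expressed in midbrain or hindbrain were over 2-fold higher by the measured means, some of them with a bound. They included FGF8, WNT1 and HOXB2, described below, PAX7 (1.86), PAX2 (1.16) and HOXA2 (1.55 and 1.73 at its 2 detected probes).

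Genes of postmitotic neurons lay on both sides. Of 37 measured, 29 were above background, 10 were over 2-fold higher, 3 were over 2-fold lower, and the median difference was 0.01. TAGLN3, an actin-associated neuronal protein, was at 9.84 in the EB and 6.78 ± 0.19 in MEG3-ON cells, STMN2, a microtubule regulator of growing axons, at 9.31 and 6.77 ± 0.23, and DCX, doublecortin of migrating neurons, at 8.53 and 6.85 ± 0.12. CNTN2, an axonal adhesion protein, was above background in the EB alone (8.34, at least 5.68-fold). MAP2, a dendritic microtubule protein, was higher by 2.27, but by 0.53 at another probe. TUBB3, the neuronal tubulin, was level at 12.59 in the EB and 12.54 ± 0.21 in MEG3-ON cells, and SCG3 and CHGB, granins of secretory vesicles, were lower, with a difference of -2.70 for SCG3 and at least 2.73-fold for CHGB.

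Lateral plate mesoderm and mesenchymal factors were higher in the EB, while markers of the primitive streak were not above background. Of 27 measured lateral plate and amnion factors, 16 were above background, 12 were over 2-fold higher and 1, HEY2, was over 2-fold lower, with a median difference of 1.83. With no detection filter the list median was 0.46. MSX1, a homeobox factor of limb and neural crest, was at 11.72 in the EB, against 7.53 ± 0.78 in MEG3-ON cells. TBX2, a T-box repressor, was above background in the EB alone (8.09, at least 4.78-fold), MEIS1, a HOX cofactor, was higher by 2.57, IRX3 by 1.94 and ISL1, a factor of cardiac progenitors and motor neurons, by 1.29. TBXT, EOMES, MIXL1, GSC and MESP1, which mark the streak and early mesoderm, had no probe above background in the EB. Of 17 measured streak and early mesoderm genes, 5 passed the filter, with 3, OSR1, PAX2 and WNT3, over 2-fold higher by the measured means. However, 3 of the 5 had a bound, and the list median of 1.05 became 0.31 with bounds in place of measured values. The heart factors NKX2-5, TBX5, TBX20, GATA4 and HAND2 were not above background in the EB either.

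Muscle genes split. ACTC1, cardiac actin, was at 11.77 in the EB and 10.57 ± 0.51 in MEG3-ON cells, and MYL4, an embryonic atrial myosin light chain, was above background in the EB (7.08, at least 2.37-fold), with 4 of 23 measured cardiac and striated muscle genes over 2-fold higher and 15 not above background. Of the smooth muscle actins, ACTA2 was at 11.35 in the EB, against 8.41, 8.29, 7.40 and 7.82 (10.3-fold higher), and ACTG2 was at 6.24, against 8.68, 10.40, 8.99 and 8.84 (7.91-fold lower). The other smooth muscle genes measured above background, TAGLN among them (12.12 in the EB, 12.10 ± 0.54 in MEG3-ON cells), were within 2-fold.

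Extracellular matrix genes were often higher in the EB, and fibrillar collagens were among the largest. Of 52 measured, 41 were above background, 19 were over 2-fold higher and 3 were over 2-fold lower, with a median difference of 0.71. Besides COL3A1, HAPLN1 and COL2A1 these included LUM, lumican of the collagen fibril surface (at least 4.84-fold), COL6A3 (3.19 higher), COL5A2 (2.86 higher), COL5A1 (2.24 higher), FBN2, fetal fibrillin (2.28 higher), and BGN, biglycan (2.02 higher). COL1A2 was at 10.87 in the EB and 9.48 ± 0.09 in MEG3-ON cells, with a difference of 0.61 at another probe, and its partner chain COL1A1 was at 9.92 and 9.38 ± 0.42. Basement membrane genes differed among themselves. LAMC1 (11.54 in the EB, 11.43 ± 0.11 in MEG3-ON cells) and COL4A1 (11.67 and 11.37 ± 0.27) were nearly level, while COL4A6 was higher by 1.90 (1.13 at another probe), COL4A5 by 1.40 (0.26 at another probe), COL4A2 by 1.13 and NID2, a nidogen, by at least 2.15-fold. THBS2, a matricellular protein, was below background in the EB (4.92), against 8.04, 8.68, 8.27 and 7.95 (at least 6.07-fold lower).

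E-cadherin and several epithelial genes were lower, and N-cadherin was higher. Of 22 measured genes of epithelial to mesenchymal transition and adhesion, 18 were above background. Of these, 8 (44.4%) were over 2-fold higher and 5 (27.8%) over 2-fold lower. CDH1 (E-cadherin) was at 10.03 in the EB, against 12.31, 12.75, 12.39 and 12.71 (5.70-fold lower), and CDH2 (N-cadherin) at 14.08, against 11.44, 11.65, 11.21 and 11.77 (5.89-fold higher). CDH11, the cadherin of mesenchyme, was higher by 3.58. EPCAM, an epithelial adhesion protein, had a difference of -2.37 and CLDN7, a tight junction claudin, of -2.34, and ESRP1, the epithelial splicing factor, was below background in the EB (at least 4.35-fold lower). SNAI2 (at least 2.49-fold) and ZEB2 (1.95 higher), repressors of CDH1, were higher in the EB. CDH1 and EPCAM remained above background in the EB. Among keratin genes KRT8 was higher by 1.29, KRT19 was at 11.62 in the EB and 10.91 ± 0.23 in MEG3-ON cells, and KRT18 had differences of -0.38 and -0.25 at its 2 detected probes. Of 24 measured keratin and surface ectoderm genes, 16 were above background, 2 were over 2-fold higher and 5 over 2-fold lower, with a median difference of -0.47. The epithelial sodium channel subunits SCNN1A (a difference of -2.95) and SCNN1G (at least 4.19-fold), named after their values were seen, were both lower.

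Several secreted products of liver and yolk sac were higher, while transcription factors of endoderm lay on both sides or were not above background. SOX17, GATA4 and GATA6 had no probe above background, and HHEX, a homeobox factor of anterior endoderm, was at 5.90 in the EB and 8.44 ± 0.37 in MEG3-ON cells. Of 25 measured endoderm genes, 11 were above background, 4 of them (36.4%) over 2-fold higher and 5 (45.5%) over 2-fold lower. FOXA1, a pioneer factor of gut and floor plate, was above background in the EB alone (7.55, at least 3.29-fold). FOXA2, of endoderm and floor plate, was at 6.31 in the EB, within the MEG3-ON values of 4.86, 6.90, 4.69 and 4.74, of which 1 was above background, and FOXA3, of the liver, was at 9.38 in the EB and 10.36 ± 0.22 in MEG3-ON cells. Among 38 measured hepatic and yolk sac secretory genes, 14 were above background, 8 were over 2-fold higher and none was over 2-fold lower. The list median of 1.60 became -0.11 among genes detected on all 5 arrays. APOA1, the main HDL apolipoprotein, was at 9.76 in the EB, against 5.42, 5.60, 5.18 and 6.02 in MEG3-ON cells, of which 1 was above background (18.4-fold higher by the measured means). TTR, the thyroid hormone carrier transthyretin, which choroid plexus and retinal pigment epithelium also make, was at 7.94 (at least 4.32-fold higher). AFP, alpha-fetoprotein, was at 9.59 in the EB, against 7.69, 7.93, 7.04 and 7.11, although H9 cells had 8.42 and 9.04 undifferentiated. CPS1, a urea cycle enzyme, was higher by 2.21, while ALB, albumin, was level at 5.88 in the EB and 5.81 ± 0.25 in MEG3-ON cells.

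Several other cell types had few genes above background. Of 34 endothelial and blood genes, 24 did not pass the filter, PECAM1, CDH5, KDR and TAL1 among them. Of the 10 that passed, 2 (20%) were over 2-fold higher and 1 (10%) over 2-fold lower. LMO2, a bridging factor of blood and vessel progenitors, was the largest, at 8.98 in the EB and 6.42 ± 0.21 in MEG3-ON cells. Of 26 trophoblast and amnion products, 18 did not pass and 5 were over 2-fold higher, with VTCN1, an immune checkpoint ligand also made by amnion, at least 2.47-fold and GABRP at least 2.08-fold higher. TFAP2A, a factor of surface ectoderm, amnion and neural crest, was at 10.31 in the EB, against 8.12, 10.19, 6.56 and 8.52, so that the EB was just above the highest MEG3-ON array. In the neural crest list, 14 of 18 measured genes were above background. Of these, 8 (57.1%) were over 2-fold higher and 1 (7.14%), ERBB3, was over 2-fold lower. SOX9 was higher by 1.16 and SOX10 was at 7.14 in the EB and 6.27 ± 0.19 in MEG3-ON cells.

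**Figure D4:**
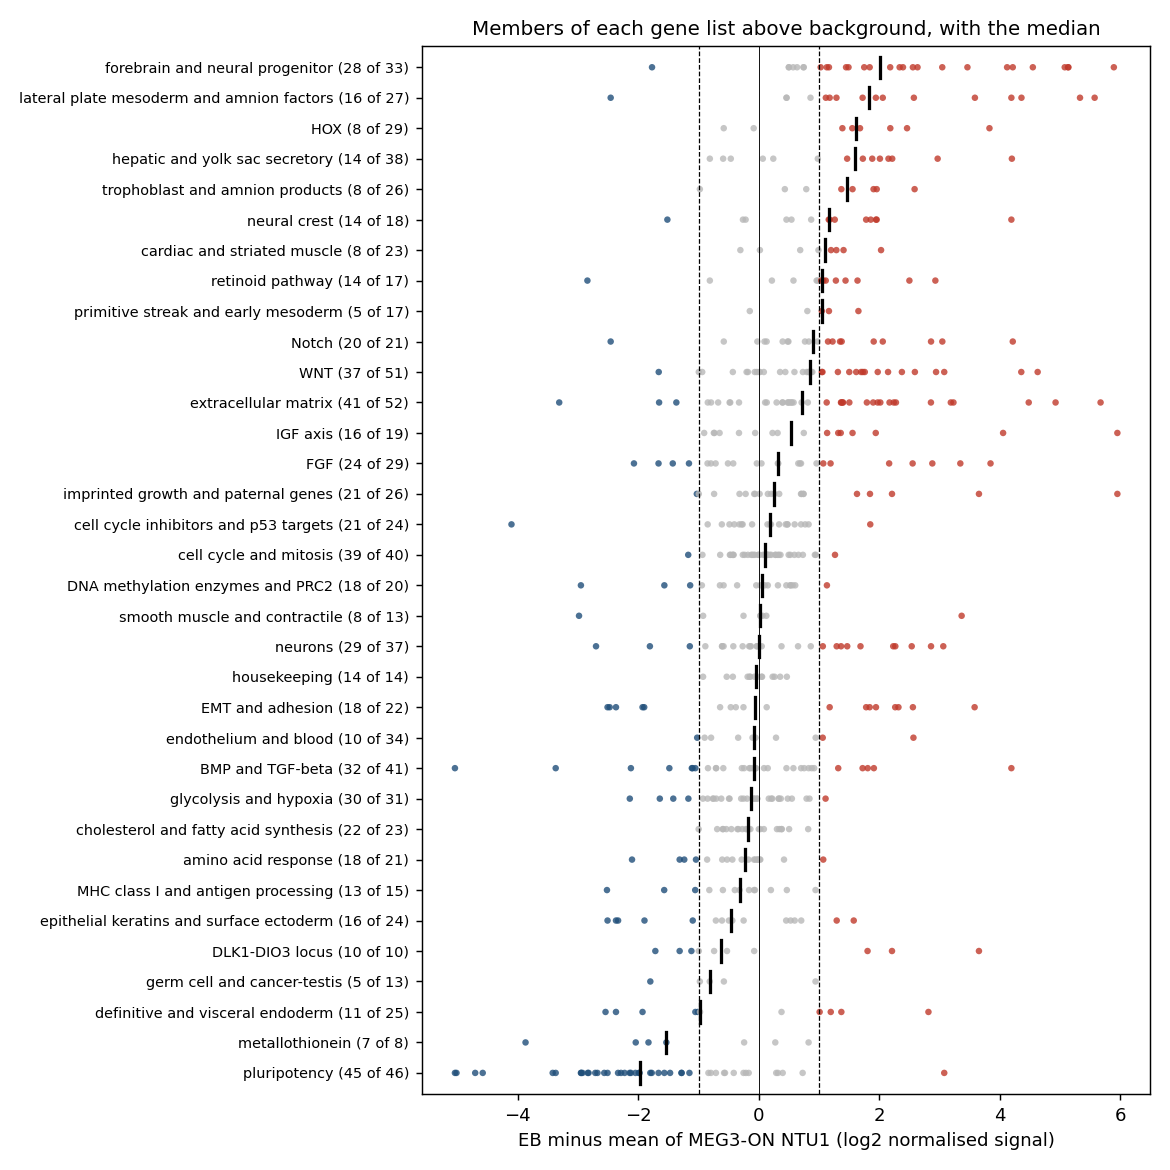
Difference in log2 normalised signal (EB minus the MEG3-ON NTU1 mean) of every list member above background, 1 row per gene list, with the number above background of the number measured. Thick ticks are medians, dashed lines mark 2-fold, and genes over 2-fold are coloured. At the settings used, forebrain genes have the highest median (2.01) and pluripotency genes the lowest (-1.98). Members that passed the filter only through the EB could only be higher.

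HOX genes, which pattern the axis behind the midbrain, were mostly below background. Of 29 measured, 8 were above background and 6 of these were over 2-fold higher in the EB. However, 5 of the 8 had a bound, and a gene that passed the filter only through the EB could only be higher. The list median of 1.62 became 1.23 with bounds in place of measured values and 0.04 with no detection filter. HOXB2, of the hindbrain, was at 8.74 (at least 7.52-fold higher), HOXB5 at 8.01 and 5.82 ± 0.08 in MEG3-ON cells, HOXC6 at 8.23 and 6.55 ± 0.13, and HOXB8, of the trunk, at 7.20 (at least 2.57-fold higher). HOXB3 and HOXB6 were within 2-fold. All 3 enzymes that make retinoic acid were higher, ALDH1A3 by 2.93, ALDH1A1 by 2.50 and ALDH1A2 by 1.64 (0.77 at another probe). DHRS3, which turns retinaldehyde back to retinol, was at 7.48 in the EB and 10.33 ± 0.31 in MEG3-ON cells. CYP26A1, which degrades retinoic acid, was at 11.94 and 12.75 ± 0.25, within 2-fold. Its relatives CYP26B1 and CYP26C1 went the other way, with measured differences of 1.07 and 1.11. In the retinoid list 14 of 17 measured genes were above background, 8 of them (57.1%) over 2-fold higher and 1 (7.14%) over 2-fold lower.

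Several WNT ligands and some secreted WNT inhibitors were higher. Of 51 measured WNT pathway genes, 37 were above background, 16 were over 2-fold higher and 1 was over 2-fold lower, with a median difference of 0.85. The lower one was the receptor FZD7 (a difference of -1.66, and -0.52 at another probe). However, 11 of the 37 had a bound, and a gene that passed the filter only through the EB could only be higher. The list median became 0.59 with bounds in place of measured values and 0.49 with no detection filter. The ligands WNT5B, WNT3A (at least 4.34-fold), WNT1 (at least 1.50-fold) and WNT2B (at least 1.87-fold) and the agonists RSPO3 (at least 3.49-fold) and RSPO1 (at least 1.56-fold) were below background on every MEG3-ON array. The inhibitors DKK1, SFRP2 and FRZB (1.31 higher) were above background there too. Other inhibitors were not higher, with SFRP1 at 11.90 in the EB and 12.90 ± 0.21 in MEG3-ON cells and differences of -0.18 for WIF1 and -0.03 for DKK3. Of the target genes, SP5 was higher by 2.59, LEF1 by 2.15 and NKD1 by at least 2.07-fold, and AXIN2 was within the MEG3-ON range at 10.29 in the EB and 10.72 ± 0.40.

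Notch targets of the HES family and HEY1 were higher, and HEY2 was lower. In the Notch list, 20 of 21 measured genes were above background, 9 were over 2-fold higher and 1 over 2-fold lower, with a median difference of 0.90. HES5, the Notch effector of neural progenitors, was at 12.05 in the EB, against 7.74, 9.08, 7.04 and 7.46 (18.6-fold). HES4 was at 11.99, against 8.96, 8.96, 8.73 and 9.12 (8.26-fold), HES1 at 10.17, against 8.50, 9.04, 7.63 and 7.89 (3.75-fold), and the ligand DLL1 at 10.65 and 7.79 ± 0.53. HEY2, a related repressor of heart and vessels, was at 7.65 in the EB, against 10.32, 10.09, 10.57 and 9.44 (5.50-fold lower). Its relative HEY1 was higher, with differences of 1.26 and 2.06 at its 2 detected probes, and HEYL had a difference of 0.98. NOTCH1 was at 10.74 in the EB and 9.90 ± 0.28 in MEG3-ON cells, NOTCH3 at 10.49 and 10.36 ± 0.18, and the target NRARP at 6.54 and 6.57 ± 0.33. RBPJ, the DNA-binding partner of Notch, which is not in the list, was at 7.60 in the EB and 9.05 ± 0.26 in MEG3-ON cells, and its 3 detected probes had differences of -2.36 to -0.73.

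The promoters of HES5, HES4, HES1 and HEY2 are shown because genes of both directions held the core letters read by RBPJ. GTGGGAA was searched on both strands of the same RefSeq windows, which run from 250 bases before to 50 after the start, and 6.25% of all 35116 windows held it. HES5 had 2 matches, HES4 had 1, HES1 had 1 and HEY2 had 2, and 5 of 16 Notch list genes above background with a promoter in the table had any. Matches in the gene's direction began 81 bases before the start of HES5, 77 before that of HES4, 85 before that of HES1 and 4 before that of HEY2. The matches are in capitals, and each line is written in the direction of the gene. The windows are chr1:2530214-2530513 (minus strand) for HES5, chr1:1000048-1000347 (minus strand) for HES4, chr3:194135898-194136197 (plus strand) for HES1 and chr6:125749382-125749681 (plus strand) for HEY2, all in GRCh38.p14.
HES5: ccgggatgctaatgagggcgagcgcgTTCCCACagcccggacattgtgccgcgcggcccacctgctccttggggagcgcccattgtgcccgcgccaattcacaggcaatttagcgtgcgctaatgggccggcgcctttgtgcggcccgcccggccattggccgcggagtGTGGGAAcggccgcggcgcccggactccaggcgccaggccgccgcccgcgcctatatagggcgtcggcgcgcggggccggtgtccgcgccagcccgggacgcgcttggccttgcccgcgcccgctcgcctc
HES4: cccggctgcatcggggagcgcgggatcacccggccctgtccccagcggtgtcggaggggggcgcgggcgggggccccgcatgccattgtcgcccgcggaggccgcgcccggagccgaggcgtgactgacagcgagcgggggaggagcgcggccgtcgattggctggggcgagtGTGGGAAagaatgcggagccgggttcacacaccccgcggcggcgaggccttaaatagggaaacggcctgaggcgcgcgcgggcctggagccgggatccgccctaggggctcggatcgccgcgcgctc
HES1: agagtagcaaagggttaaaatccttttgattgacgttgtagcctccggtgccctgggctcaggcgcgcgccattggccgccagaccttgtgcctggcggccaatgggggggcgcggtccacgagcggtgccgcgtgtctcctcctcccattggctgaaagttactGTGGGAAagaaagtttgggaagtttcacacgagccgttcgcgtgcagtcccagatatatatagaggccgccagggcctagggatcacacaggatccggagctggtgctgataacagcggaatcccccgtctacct
HEY2: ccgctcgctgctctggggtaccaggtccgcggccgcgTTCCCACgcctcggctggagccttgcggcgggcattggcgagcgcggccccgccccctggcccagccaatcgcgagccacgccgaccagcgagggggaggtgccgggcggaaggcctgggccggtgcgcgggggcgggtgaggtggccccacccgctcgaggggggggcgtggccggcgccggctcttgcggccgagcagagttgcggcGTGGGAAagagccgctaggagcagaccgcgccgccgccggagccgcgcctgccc

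FGF and TGF-beta ligands differed in both directions. FGF9 was at 9.53 in the EB and below background on all 11 undifferentiated arrays (at least 12.9-fold higher), and FGF8, a ligand of brain organisers, was at 8.21 (at least 5.20-fold higher than in MEG3-ON cells, although both H9 arrays were above background, at 6.03 and 6.21). FGF2, the ligand that sustains hESC, was at 7.61 in the EB and 9.27 ± 0.20 in MEG3-ON cells. The FGF feedback genes differed in direction, with ETV5 higher by 2.16 and DUSP4 by at least 3.12-fold and SPRY4 with a difference of -2.07 (-0.69 at another probe). In the FGF list 24 of 29 measured genes were above background, 7 of them (29.2%) over 2-fold higher and 4 (16.7%) over 2-fold lower. In the BMP and TGF-beta list 32 of 41 measured genes were above background, 5 of them (15.6%) over 2-fold higher and 7 (21.9%) over 2-fold lower, against 9.07% and 7.76% over all genes above background, with LEFTY1, GDF3 and NODAL among those lower. The antagonists FST (12.22 in the EB, 10.42 ± 0.19 in MEG3-ON cells) and NOG (at least 1.87-fold) were higher. The BMP targets ID2 and ID1 had differences of 1.32 and -1.11.

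At the imprinted DLK1-DIO3 locus, which gives the MEG3 groups their names, the EB was at the MEG3-ON level for MEG3. The protein-coding genes DLK1 and DIO3 and the noncoding DIO3OS (a measured difference of 1.81) were higher. Of 10 measured genes of the locus, these 3 were over 2-fold higher and 3 over 2-fold lower. MEG3 was at 13.76 in the EB, against 13.14, 14.05, 14.12 and 14.04 in MEG3-ON cells, within their range, and at 4.97 to 6.29 in MEG3-OFF NTU1 cells. DLK1, a paternally expressed transmembrane inhibitor of differentiation, was at 14.59 in the EB, against 11.03, 10.68, 10.87 and 11.19 (12.6-fold higher), and DIO3, the enzyme that inactivates thyroid hormone, was at 7.52 (at least 3.22-fold higher). MEG8 was at 6.92 in the EB, against 7.03, 8.45, 8.13 and 8.05, and MEG9 at 6.86, against 6.93, 8.13, 7.64 and 7.71, so the EB was just below the lowest MEG3-ON array for these maternal RNAs and within 2-fold of the mean. SNORD114-1, a small nucleolar RNA gene of the maternal allele, was at 6.76 in the EB, against 8.16, 9.13, 8.31 and 8.30 (3.29-fold lower), yet above the MEG3-OFF range of 4.76 to 5.29.

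Elsewhere, H19 was accompanied by NNAT, a paternally expressed proteolipid of the embryonic brain (14.02 in the EB, 12.17 ± 0.28 in MEG3-ON cells), and by NDN, the growth suppressor necdin (12.65 and 11.02 ± 0.15), while SNRPN, a splicing protein gene of the same imprinted region as NDN, had a difference of -1.03. Of 26 measured imprinted genes, 21 were above background, 5 of them (23.8%) over 2-fold higher and 1 (4.76%) over 2-fold lower. IGF2, the neighbour of H19, was not above background at any probe on the 5 arrays. IGFBP5, which binds IGFs, was at 13.03 in the EB, against 8.60, 9.15, 8.65 and 9.51 (16.6-fold higher), and 4 other binding proteins, IGFBP7, IGFBP3, IGFBP2 and IGFBP1, were over 2-fold higher, IGFBP7 by at least 3.00-fold.

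**Figure D5:**
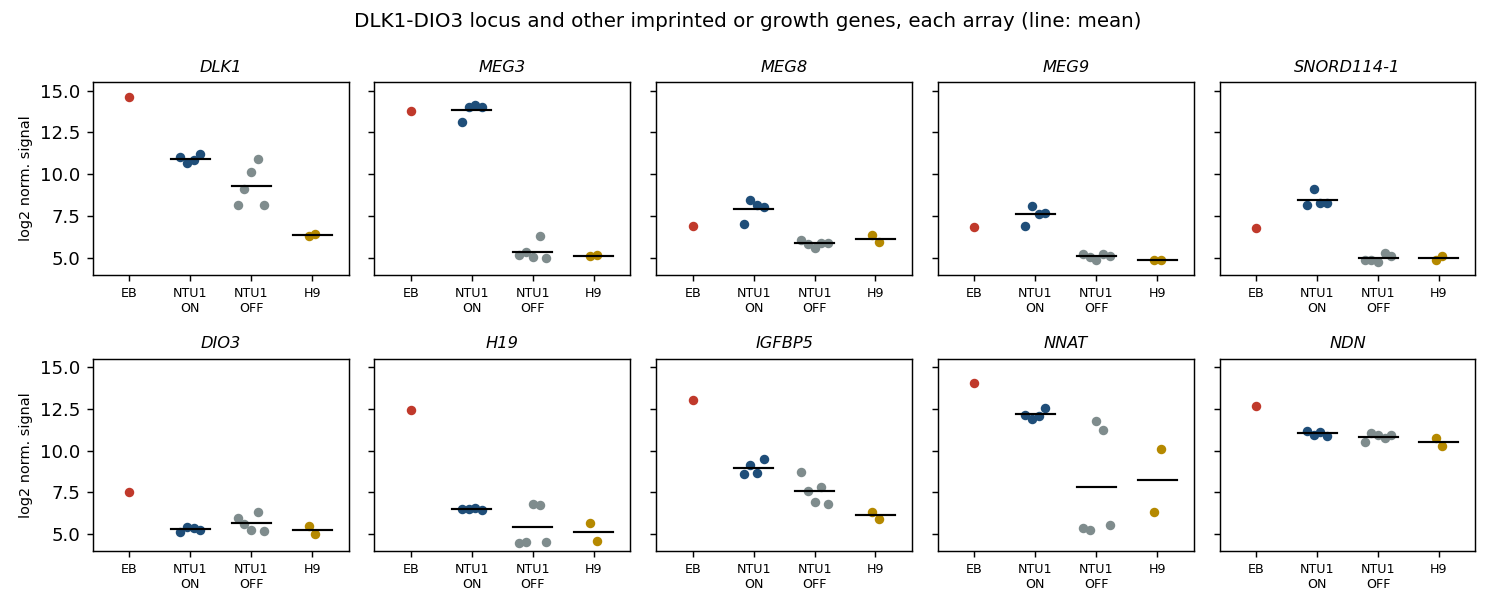
Log2 normalised signal on each array for genes of the DLK1-DIO3 locus (top row to DIO3) and for H19, IGFBP5, NNAT and NDN, in the EB, MEG3-ON NTU1, MEG3-OFF NTU1 and H9 cells. Lines are group means. MEG3 is level between the EB (13.76) and MEG3-ON cells, and DLK1, H19 and IGFBP5 are highest in the EB.

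Few genes of the cell cycle and of cholesterol and fatty acid synthesis were over 2-fold different. Several other lists here had a larger share over 2-fold lower than the 7.76% over all genes, on small counts. Of 40 measured cell cycle genes, 1 (TYMS, thymidylate synthase, 1.27 higher) was over 2-fold higher and 1 (BUB1, a spindle checkpoint kinase, with a difference of -1.17) over 2-fold lower, with a median difference of 0.10, and CDK1 was at 10.13 in the EB and 10.56 ± 0.29 in MEG3-ON cells. None of 23 measured cholesterol and fatty acid genes was over 2-fold different. Among cell cycle inhibitors and p53 targets, GADD45A was higher by 1.85, CDKN1A, p21, was at 9.25 in the EB and 8.66 ± 0.46, and PMAIP1 was the 1 gene over 2-fold lower. In the glycolysis and hypoxia list 30 of 31 were above background, 1 (3.33%) over 2-fold higher and 4 (13.3%) over 2-fold lower. The lower ones were led by ADM, the peptide adrenomedullin (10.89 in the EB, 13.03 ± 0.90 in MEG3-ON cells). Of 8 measured metallothioneins 7 were above background and 4 (57.1%) were over 2-fold lower, MT1G first, while MT1F was at 10.92 in the EB and 10.10 ± 0.48. In the antigen processing list 13 of 15 were above background and 3 (23.1%) were over 2-fold lower. Among them were PSMB8, an immunoproteasome subunit (5.98 in the EB, 8.50 ± 0.17 in MEG3-ON cells), and the peptide transporter TAP1 (7.80 and 9.37 ± 0.21), while HLA-B was higher by 0.94. Of the chromatin enzymes, JARID2, a PRC2 cofactor, had a difference of -1.57 and DNMT3B of -2.95, while EZH2, the PRC2 methyltransferase, was at 9.42 in the EB and 8.89 ± 0.06, and UHRF1, which guides maintenance methylation, was higher by 1.13. In the amino acid response list 18 of 21 were above background, 1 (5.56%) over 2-fold higher and 4 (22.2%) over 2-fold lower. The lower ones included ASNS, asparagine synthetase (10.43 in the EB, 11.67 ± 0.15 in MEG3-ON cells). In the germ cell list 5 of 13 were above background and 1 (20%) was over 2-fold lower.

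Some genes were above background on one side only. For 475 genes a probe was above background in the EB and none was on any of the 11 undifferentiated arrays, and 79 of these were over 4-fold higher than in MEG3-ON cells. Besides those above, they included LMO3, a LIM-only cofactor (at least 14.6-fold), SPHK1, which makes sphingosine 1-phosphate (at least 10.3-fold), PGM5, a phosphoglucomutase relative of muscle adhesions (at least 10.3-fold), SST, the neuropeptide somatostatin (at least 5.70-fold), and ABCA4, a retinoid transporter of photoreceptors (at least 4.34-fold). In the reverse direction, 176 genes were above background on all 11 undifferentiated arrays and at no probe in the EB, and 49 of these were over 4-fold lower. They included MLKL, the effector of necroptosis (at least 6.66-fold), VASH2, an angiogenic vasohibin (at least 8.48-fold), and MIR124-1HG, the host transcript of a microRNA known from neurons (at least 7.33-fold). These genes were picked by size after their values were seen. The 4-fold counts of both sets use measured means. Some genes counted had a bound under 4-fold, such as FOXA1 (3.29-fold) and FAM124B (2.38-fold). Choosing the sets by detection largely fixed their direction.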

How the data were processed

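RNA of 12 cultures was measured on Illumina HumanHT-12 v4 arrays. The deposited non-normalized data give, per the file headers, an average bead intensity and a detection p-value for each of 47230 probes and each array. The deposited series matrix holds the authors' normalised signals of the same arrays. These were taken to log2 here and used as an alternative only. Partek is named in the submitters' processing notes. Intensities were corrected and normalised here with neqc (limma 3.58.1, R 4.3.3: normexp from the detection p-values, offset 16, quantile over 12 arrays, log2). GEO's platform annotation gave 1 symbol for 30113 probes, several for 8 and none for 17109, and 30074 matched RefSeq. For each gene the probe with the highest mean over 12 arrays was kept. XIST and Y-linked genes were left out.

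No test was made with 1 EB array. The named genes are the 20 largest differences in each direction, list members over 2-fold, at most 6 in a direction, members that define a list, and MEG3, MEG8, MEG9 and DLK1. Other genes within 2-fold and the microRNA genes were named after their values were seen. The comparison and the gene lists were chosen with earlier results of these data known. The script recovered set changes of 2-fold and 4-fold, as medians over probes, in simulated data. These changes were set only in genes well above background in MEG3-ON cells, so recovery near background was not checked. Alternatives were the background correction, offset, normalisation, arrays normalised together, source of the values, detection filter, probe choice and leaving out each MEG3-ON array. The number of arrays limits the precision.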

Additional observations from a re-analysis of the deposited data

Results flagged for a closer look

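Among 215 genes checked on the 4 MEG3-ON arrays, 11 had 1 array standing apart from the other 3, about the 1 in 20 that chance gives. The MEG3 signal of replicate 1 was 13.14, with the nearest other array at 14.04, and the EB value of 13.76 lay between them. POU5F1 was at 12.42 in replicate 2 (nearest 12.29), DKK1 at 6.36 in replicate 1 (nearest 5.95), and SNORD114-1 at 9.13 in replicate 2 (nearest 8.31). FOXA2 was at 6.90 in replicate 2 (nearest 4.86), which was also above the EB (6.31). TAGLN3 was at 6.501 in replicate 3 (nearest 6.85), KRT19 at 10.57 in replicate 1 (nearest 10.99) and MAP2 at 6.01 in replicate 1 (nearest 6.20). PITX1 at 5.44 in replicate 2, WNT5B at 5.81 in replicate 2 and TBX2 at 4.58 in replicate 1 were below background there.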

How the results depend on the processing

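The number of genes over 2-fold depended on the background correction and the filter. The 1066 higher genes became 619 without background correction, 622 in the authors' matrix and 620 among genes detected in the EB and on all 4 MEG3-ON arrays. The 912 lower genes became 473 without background correction, 478 in the authors' matrix and 662 among genes detected on all 5 arrays, where lower genes outnumbered higher ones. Leaving out 1 MEG3-ON array gave 1036 to 1103 higher and 894 to 972 lower genes. The pluripotency median of -1.98 became -1.18 without background correction, -1.41 at an offset of 50, -1.19 in the authors' matrix and -1.57 among genes detected on all 5 arrays. The lateral plate median of 1.83 became 1.18, 1.37 and 1.19 in the same first 3 settings and 0.46 with no detection filter. The forebrain median of 2.01 became 1.62 without background correction, 1.63 in the authors' matrix, 1.49 with no filter and 1.66 among genes detected on all 5 arrays. The extracellular matrix median of 0.71 became 0.52, 0.54 and 0.52 in the first 3 settings, 0.50 with no filter and 0.53 among genes detected on all 5 arrays. The hepatic median of 1.60 became -0.11 among genes detected on all 5 arrays, a setting that by construction drops genes below background in MEG3-ON cells. No paired analysis was possible because there was 1 EB array, no test was made and the labels link no replicate numbers across groups. With 1 EB, the spread between EBs is unknown, and signals near background compress fold changes.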
